A study of Mus musculus with 6 samples.

Results

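Nuclei from mouse brain blocks fixed in formalin and embedded in paraffin (FFPE) were compared with nuclei from frozen tissue in the bulk SCRB-seq wells of a study on sequencing single nuclei from FFPE blocks. SCRB-seq is a plate chemistry in which each well receives its own barcode and the wells are then pooled into a library. The comparison covers every well of that table, 64 of the 76 bulk wells in the series, grouped by the treatment and the number of nuclei listed for each well. There were 48 FFPE wells and 16 frozen wells. The FFPE wells came in 3 sets of 16, named MinOil, Xylene and XyleneRT, for removal of the paraffin with mineral oil and heat, with xylene and heat, or with xylene at room temperature alone. In each set, and among the frozen wells, 8 wells held 10 nuclei and 8 wells held 100 nuclei. All material was labelled as cortex of C57BL/6J mice aged 8 to 12 weeks, and the FFPE nuclei came from brain scrolls 50 µm thick. The labels give neither the number nor the sex of the mice, nor how the frozen nuclei were prepared.

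Formalin cross-links RNA to protein and embedding in hot paraffin breaks it, so RNA from FFPE blocks is usually short and hard to copy. Nuclei hold unspliced transcripts of long genes and retained noncoding RNAs such as Malat1, while most spliced messages and all mitochondrial transcripts lie outside the nucleus. In cortex, excitatory projection neurons express Camk2a and Nrgn. Cerebellar granule neurons, the most numerous neurons of the brain, are known by Gabra6, Cbln3 and the Zic factors. A well of pooled nuclei reports the mixture, so fewer cells of a type and less RNA per cell cannot be told apart.

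The wells of 1 treatment and 1 nuclei number formed 1 library pool, 8 pools in all, and the whole table is 1 deposited sample. Frozen and FFPE material was never in the same pool, so preservation, pool and animal cannot be told apart, and p-values measure only the spread between wells. FFPE wells held 7512 to 147257 counts on mouse genes (median 56716) and frozen wells 17611 to 167144 (median 58643), in all 2976681 and 1065514, so raw counts summed over the arms are not on 1 scale, and 1 count was worth 5.98 to 133 CPM, depending on the well, where CPM stands for a gene's mouse counts scaled to a total of 1000000 in the well. The number of genes detected did not pass the test: wells of 10 nuclei had 4939 ± 2287 genes (SD, n = 24) in FFPE and 6477 ± 1252 (SD, n = 8) in frozen, a difference of -1538 (2-sided exact permutation test, p = 0.0818, adjusted p = 0.0850 over the 2 nuclei numbers). The mineral oil pool of 10 nuclei lay lowest, with 2091 ± 380 genes (SD, n = 8), against 6413 ± 1064 for heated and 6311 ± 1415 for room-temperature xylene. Wells of 100 nuclei had 8977 ± 1353 against 9954 ± 1308, a difference of -977 (same exact test and adjusted p = 0.0850). Drawn down to 7500 counts per well, the 10-nuclei difference was -876 (exact permutation test, adjusted p = 0.000867) and the 100-nuclei difference -42.4 (exact permutation test, p = 0.654). At 10 nuclei the drawn-down means were 1516 for mineral oil, 2704 and 2546 for heated and room-temperature xylene and 3132 for frozen wells. The arms also differed in a Y-linked gene, looked up after the data had been seen: Eif2s3y had 0 counts in all 48 FFPE wells and 102 counts in 12 of the 16 frozen wells, at least 94.98-fold lower in FFPE with a floor of 3 counts over the group. The other Y-linked genes looked up, Kdm5d, Ddx3y and Uty, had 16, 61 and 50 counts over the FFPE wells and 49, 42 and 62 over the frozen wells, or 5.38, 20.5 and 16.8 CPM against 46.0, 39.4 and 58.2. In the SMART-Seq2 wells described below, Eif2s3y, Kdm5d, Ddx3y and Uty had 0, 0, 0 and 1 counts in FFPE and 153, 185, 56 and 126 in frozen wells. Part of the table counts human genes: their share of all counts was 11.8% over the FFPE wells and 2.08% over the frozen wells, and what part this played in the results below was not tested.

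**Figure D1:**
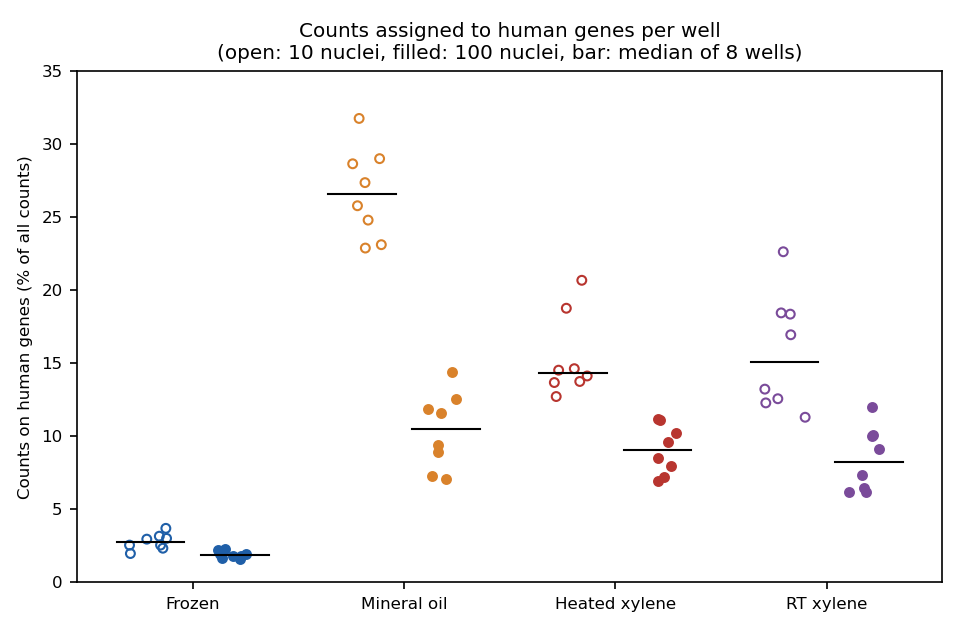
Percent of all counts assigned to human genes in each SCRB-seq well, by treatment, with open points for 10 nuclei, filled points for 100 nuclei and a bar at the median of 8 wells. All FFPE wells, from 6.17% to 31.8%, lie above the frozen wells, from 1.61% to 3.70%.

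Of 1478 mouse genes with enough counts to test, 882 (59.7%) differed between FFPE and frozen wells at an adjusted p under 0.05 in edgeR's quasi-likelihood test, with the nuclei number as a factor. Higher in FFPE were 444 genes (30.0%), and 438 (29.6%) were lower. The median log2 fold change was -0.06 with TMM scaling. DESeq2's size factors moved that median by -0.60, to -0.66, and gave 1034 calls (70.0%), of which 308 (20.8%) were higher and 726 (49.1%) lower. All directions below are therefore relative to the scaling. Called higher under both scalings were 308 genes and lower under both 438, and 0 genes were called in opposite directions by the 2 scalings. With the wells summed to the 8 pools, 189 of 10235 genes (1.85%) were called, 89 higher (0.87%) and 100 lower (0.977%). Of the 882 genes 156 were then called in the same direction, while all 882 kept their sign. Calls lost over the pools, besides those given with the genes below, included Atp5e, Actb, Syt2, Rimbp2, Syn1, Grm7 and Snhg20 (edgeR adjusted p from 0.0504 to 0.176).

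Several genes known from cerebellar granule neurons were counted in most FFPE wells and were at or near 0 in the frozen wells. Gabra6, the GABA-A receptor subunit known from granule neurons (chromosome 11, 42306437 to 42321072, minus strand, GRCm38/mm10), ranged from 0 to 841 CPM in FFPE wells with a median of 264. It had 902 counts over 47 of the 48 FFPE wells and 0 counts in all 16 frozen wells, at least 108-fold higher in FFPE (edgeR adjusted p = 5.05e-18). Cbln3, a granule neuron cerebellin, which is a secreted synapse organiser (chromosome 14, 55878913 to 55884392, minus strand), had a median of 242 CPM in FFPE wells, the highest well reaching 4393. It too had 0 counts in every frozen well, at least 106-fold higher in FFPE (edgeR adjusted p = 1.34e-13). Each gene lacked a count in 1 FFPE well, a different well for each, and no frozen well held a count of either.

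Cbln1, the cerebellin that bridges granule neuron terminals to Purkinje cells (chromosome 8, 87468405 to 87472609, minus strand), ranged from 0 to 901 CPM in FFPE wells with a median of 253. Its 910 FFPE counts faced 1 frozen count, a ratio of 326 with a 95% counting interval of 58.3 to 12880 (edgeR adjusted p = 4.28e-16), and 40 of 48 FFPE wells exceeded the highest frozen well. Zic1, a transcription factor of granule neurons that is also used in parts of thalamus (chromosome 9, 91358058 to 91365810, minus strand), had a median of 201 CPM in FFPE and 0 in frozen wells, whose highest value was 21.2. Its log2 fold change was 4.95 ± 0.52 (SE, edgeR adjusted p = 2.82e-13), and 43 of 48 FFPE wells lay above every frozen well. Fat2, a large atypical cadherin of granule neurons (chromosome 11, 55250609 to 55336564, minus strand), had 545 FFPE counts and 2 frozen counts, a ratio of 97.5 (95% counting interval 26.9 to 807, edgeR adjusted p = 2.82e-11). The Fat2 call was lost over the pools (edgeR adjusted p = 0.0676).

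The granule neuron list held 17 genes, of which 16 were in the table and 11 passed the filter on low counts. All 11 that passed were called higher, against 30.0% of all tested genes, with a median log2 fold change of 4.95 against -0.06 over all tested genes. Several of them passed the filter through the FFPE wells alone, so this count and this median are a description of the members that passed. The other called members were Calb2, Chn2, Grin2c, Etv1, Tiam1 and Cadps2, of which Chn2 (a Rac GTPase-activating protein) had a median of 744 CPM in FFPE and 33.5 in frozen wells, and a log2 fold change of 4.10 ± 0.45 (SE, edgeR adjusted p = 1.15e-12). Tiam1 and Cadps2 were no longer called with DESeq2's size factors. Among the members that were not tested, Zic4 and Barhl1 had 0 counts in all frozen wells and 58 and 25 counts over the FFPE wells. Slc17a7, the vesicular glutamate transporter that granule and cortical neurons share, was not tested and had medians of 28.2 CPM in FFPE and 106 in frozen wells. With a minimum count of 3, 14 members were tested and 12 called higher, against 16.2% higher and 26.8% lower of all 5430 genes tested at that minimum. Slc17a7 was then the 1 member called lower (log2 fold change -1.68, edgeR adjusted p = 0.000133). Summed over the list, FFPE wells ranged from 599 to 7210 CPM (median 3598) and frozen wells from 170 to 858 (median 565). The ranges overlapped in 3 FFPE wells, and 45 of 48 lay above the highest frozen well. The tissue label names cortex for both arms, and the protocol speaks of FFPE brain, so the FFPE wells carry genes of a cell type that the label does not name.

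**Figure D2:**
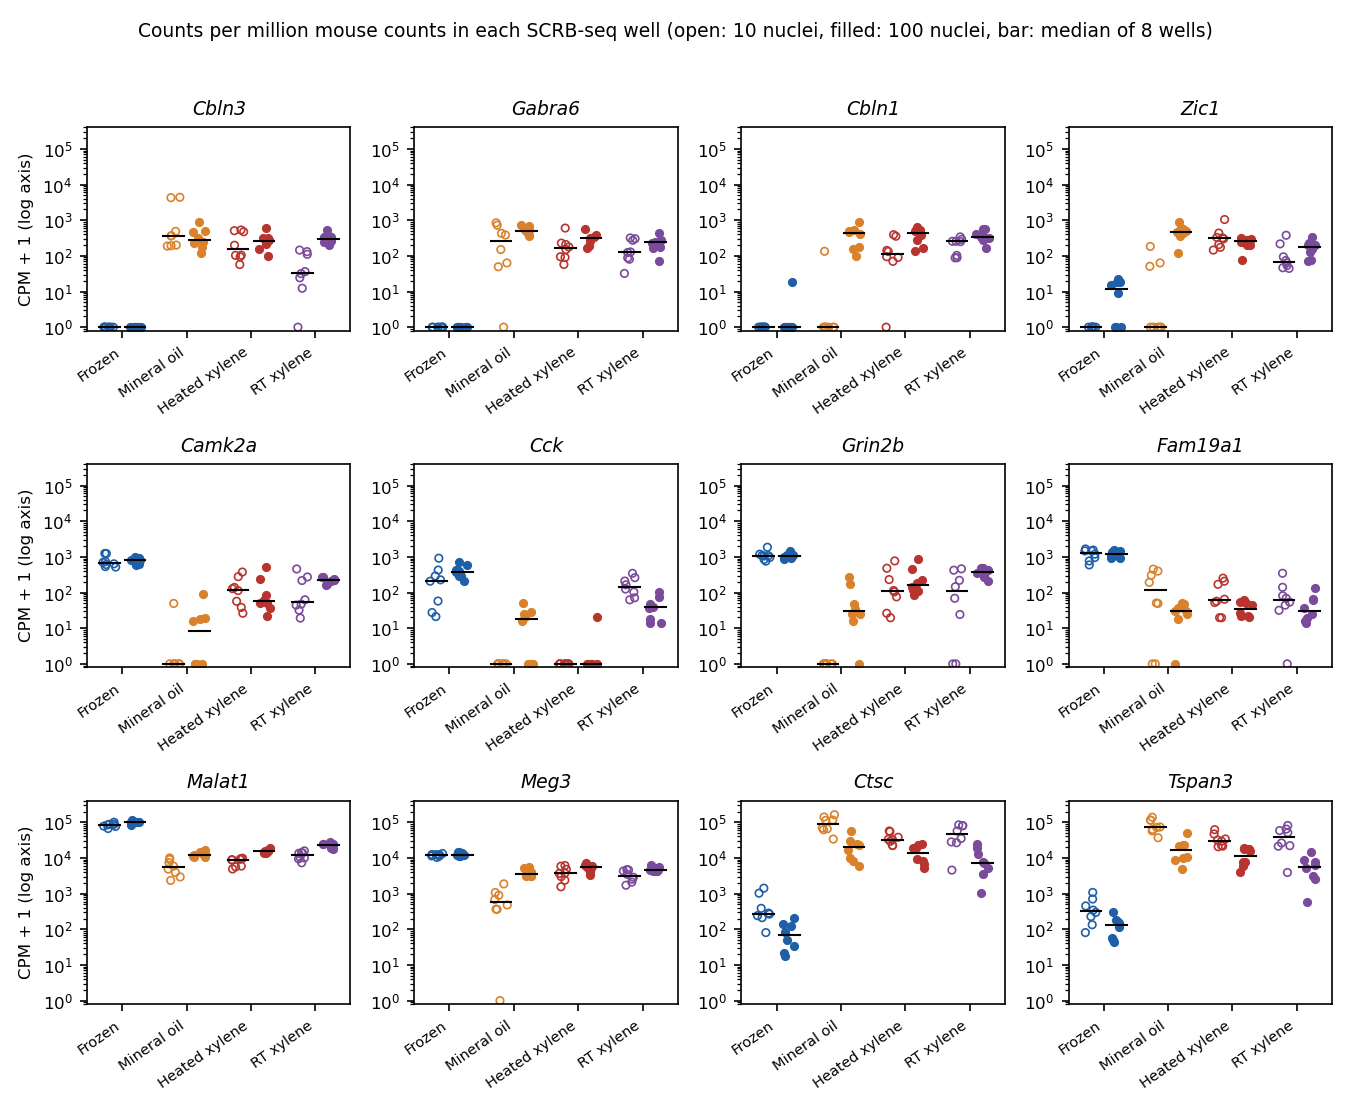
CPM plus 1 (log axis) for 12 genes in each of the 64 SCRB-seq wells, by treatment, with open points for 10 nuclei, filled points for 100 nuclei and a bar at the median of 8 wells. The granule neuron genes in the top row sit at or near 0 in frozen wells, the neuronal genes in the middle row and Malat1 and Meg3 are higher in frozen wells, and Ctsc and Tspan3 are higher in FFPE wells.

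Genes of cortical excitatory neurons were lower in FFPE. All 7 members tested, of 14 listed, were called lower under both scalings, against 29.6% of all tested genes, with a median log2 fold change of -1.58. Some of them, such as Cck, passed the filter mainly through the frozen wells, so this count and this median describe the members that passed. Camk2a, the alpha subunit of the calcium and calmodulin-dependent kinase of excitatory synapses, ranged from 0 to 520 CPM in FFPE wells (median 50.3) and from 518 to 1251 in frozen wells (median 736). The groups touched in 1 well, with 47 of 48 FFPE wells below every frozen well, and the log2 fold change was -3.30 ± 0.29 (SE, edgeR adjusted p = 1.14e-16). Nrgn, a calmodulin-binding protein of dendritic spines, had medians of 52.7 CPM in FFPE and 628 in frozen wells and a log2 fold change of -3.09 ± 0.32 (SE, edgeR adjusted p = 9.65e-14).

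Cck, the neuropeptide cholecystokinin (chromosome 9, 121489824 to 121495694, minus strand), had 0 counts in 26 FFPE wells and at least 20.2 CPM in every frozen well (median 292). Its log2 fold change over all FFPE wells was -4.35 ± 0.35 (SE, edgeR adjusted p = 2.38e-18). Its level varied among the methods: heated xylene wells held 0 counts at 10 nuclei and 1 at 100, mineral oil wells 0 and 12, and room-temperature xylene wells 88 and 29, against 68 and 287 in frozen wells. Arpp21, Rorb and Ptk2b were also among the called members, with log2 fold changes of -1.58, -1.18 and -0.83. Summed over the list, the 2 groups did not overlap: FFPE wells ranged from 192 to 2153 CPM (median 1297) and frozen wells from 3293 to 5078 (median 4636). The median sum was 949 CPM in mineral oil wells, 1317 in heated xylene wells and 1551 in room-temperature xylene wells.

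Among the glial lists, most tested astrocyte and oligodendrocyte genes were called higher, and none lower with TMM scaling. Of 7 astrocyte genes tested, 5 were called higher and 0 lower with TMM scaling, against 30.0% higher and 29.6% lower of all tested genes. With DESeq2's size factors 4 were higher and Sparcl1, a secreted matrix protein, was lower, against 20.8% and 49.1% of all tested genes. Slc1a3, the glial glutamate transporter GLAST, ranged from 0 to 5624 CPM in FFPE wells (median 467) and from 0 to 344 in frozen wells (median 142). Its log2 fold change was 2.50 ± 0.48 (SE, edgeR adjusted p = 5.50e-06), and 33 of 48 FFPE wells lay above the frozen range. Gpc5, a glypican, had medians of 863 CPM in FFPE and 304 in frozen wells, with 43 of 48 FFPE wells above the frozen range (log2 fold change 1.42 ± 0.20 SE, edgeR adjusted p = 3.00e-09). The Gpc5 call was lost over the pools (edgeR adjusted p = 0.0946). The defining water channel Aqp4 was not tested, with 133 counts over the FFPE wells and 5 over the frozen wells. Summed over the astrocyte list, FFPE wells ranged from 1438 to 7553 CPM and frozen wells from 905 to 2369.

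Of 3 oligodendrocyte genes tested, 2 were called higher and 0 lower under both scalings, against 20.8% higher and 29.6% lower of all tested genes. Summed over the list, FFPE wells ranged from 0 to 17467 CPM (median 1684) and frozen wells from 129 to 876 (median 474), with 34 of 48 FFPE wells above the frozen range and 8 below it. The median sum was 319 CPM in mineral oil wells, 2968 in heated xylene wells and 2385 in room-temperature xylene wells. St18, a zinc finger factor of oligodendrocytes, was higher (log2 fold change 1.98 ± 0.45 SE, edgeR adjusted p = 9.71e-05), while Mbp, myelin basic protein, was not called (0.47 ± 0.33 SE, edgeR adjusted p = 0.215). The St18 call was lost over the pools (edgeR adjusted p = 0.300). In the oligodendrocyte precursor list 2 genes were tested: Ptprz1, a receptor phosphatase, was higher (log2 fold change 1.72) and Tnr, the matrix protein tenascin-R, lower (-0.67). Among members not tested, Olig1 had 326 FFPE counts and 3 frozen counts, Sox10 133 and 0, and Cspg4 47 and 11. With a minimum count of 3, 4 members were tested, 2 higher and 1 lower, against 16.2% higher and 26.8% lower of all 5430 genes. The Ptprz1 call was lost over the pools (edgeR adjusted p = 0.248). The Tnr call was lost in 6 of 16 alternatives (adjusted p up to 0.537): without the filter on low counts, over the pools, without the mineral oil wells, in wells of 10 nuclei, and against frozen wells of 10 or of 100 nuclei only. None of the 11 microglial genes in the table passed the filter, and they did not go one way. Csf1r, C1qb and Tyrobp had 183, 187 and 83 counts over the FFPE wells and 0 in the frozen wells, and C1qa and C1qc had 43 and 89 against 4 and 8. Cx3cr1, the fractalkine receptor of microglia, was counted in every frozen well, with medians of 87.3 CPM in frozen and 49.8 in FFPE wells, and was called lower with a minimum count of 3 (log2 fold change -1.05, edgeR adjusted p = 0.0101). With that minimum 5 members were tested, 4 higher and 1 lower, against 16.2% higher and 26.8% lower of all 5430 genes tested at that minimum. Summed over the list, FFPE wells ranged from 0 to 1468 CPM (median 485) and frozen wells from 102 to 584 (median 167). In the endothelial list only Tek, an angiopoietin receptor, was tested and called higher (log2 fold change 2.88 ± 0.27 SE, edgeR adjusted p = 1.63e-15), whereas Cldn5, a defining tight junction gene, had 2 FFPE counts and 10 frozen counts. In SMART-Seq2 wells Tek had the opposite sign and was not called (-1.70, edgeR adjusted p = 0.645).

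Other neuron lists split. Gad1, which makes GABA, was higher in FFPE with medians of 219 and 17.1 CPM (log2 fold change 2.62 ± 0.36 SE, edgeR adjusted p = 1.52e-09), as was Adarb2, an RNA-binding protein of some interneurons (1.43 ± 0.34 SE, adjusted p = 0.000183), and both were called under both scalings. The Gad1 call was lost over the pools (edgeR adjusted p = 0.122). The Adarb2 call was lost over the pools and in wells of 10 nuclei (adjusted p up to 0.237). The mineral oil wells stood apart from the xylene wells here: the log2 fold change of Gad1 was 0.55 for mineral oil (edgeR adjusted p = 0.283), 3.49 for heated xylene and 3.82 for room-temperature xylene. Summed over the inhibitory list, the median was 123.1 CPM in mineral oil wells, below the 311 of frozen wells, and 1131 and 1110 in the xylene wells. Members that were not tested went both ways. Per mouse count Gad2, Slc32a1, Pvalb and Dlx6os1 had FFPE to frozen ratios of 2.98, 5.61, 2.04 and 2.61. The interneuron peptides Sst, Vip and Npy had ratios of 0.239, 0.0325 and 0.235, from 8, 1 and 44 FFPE counts against 12, 11 and 67 frozen counts. Lhx6 and Nxph1 had ratios of 1.07 and 0.854. Of the Purkinje list 2 of 3 tested members were lower, against 29.6% of all tested genes (49.1% with DESeq2's size factors): Itpr1, the calcium release channel of endoplasmic reticulum (log2 fold change -2.96), and Ptprk, a receptor phosphatase (-1.93). Both are expressed in other neurons as well, and Ppp1r17 and Car8, more specific to Purkinje cells, had 23 and 28 FFPE counts against 1 and 6 frozen counts. Per mouse count these are ratios of 8.23 (95% counting interval 1.34 to 339) and 1.67 (0.68 to 4.93), the second of which includes no difference. Drd1 and Drd2, the dopamine receptors of striatal spiny neurons, had 0 and 1 FFPE counts against 14 and 26 frozen counts. Pde10a, the phosphodiesterase enriched in striatum, was lower (log2 fold change -1.66 ± 0.29 SE, edgeR adjusted p = 1.39e-06), and Foxp1 was called higher with TMM scaling (0.52) but not with DESeq2's size factors (-0.10). Over the pools the calls of Pde10a and Ptprk were lost (edgeR adjusted p = 0.05465 and 0.142), as was that of Foxp1. Of the thalamic list Rora, a nuclear receptor, was lower (-1.03; lost over the pools and against frozen wells of 100 nuclei only, adjusted p up to 0.157) and Zic1 higher. The hippocampal and choroid plexus lists had 0 tested members.

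**Figure D3:**
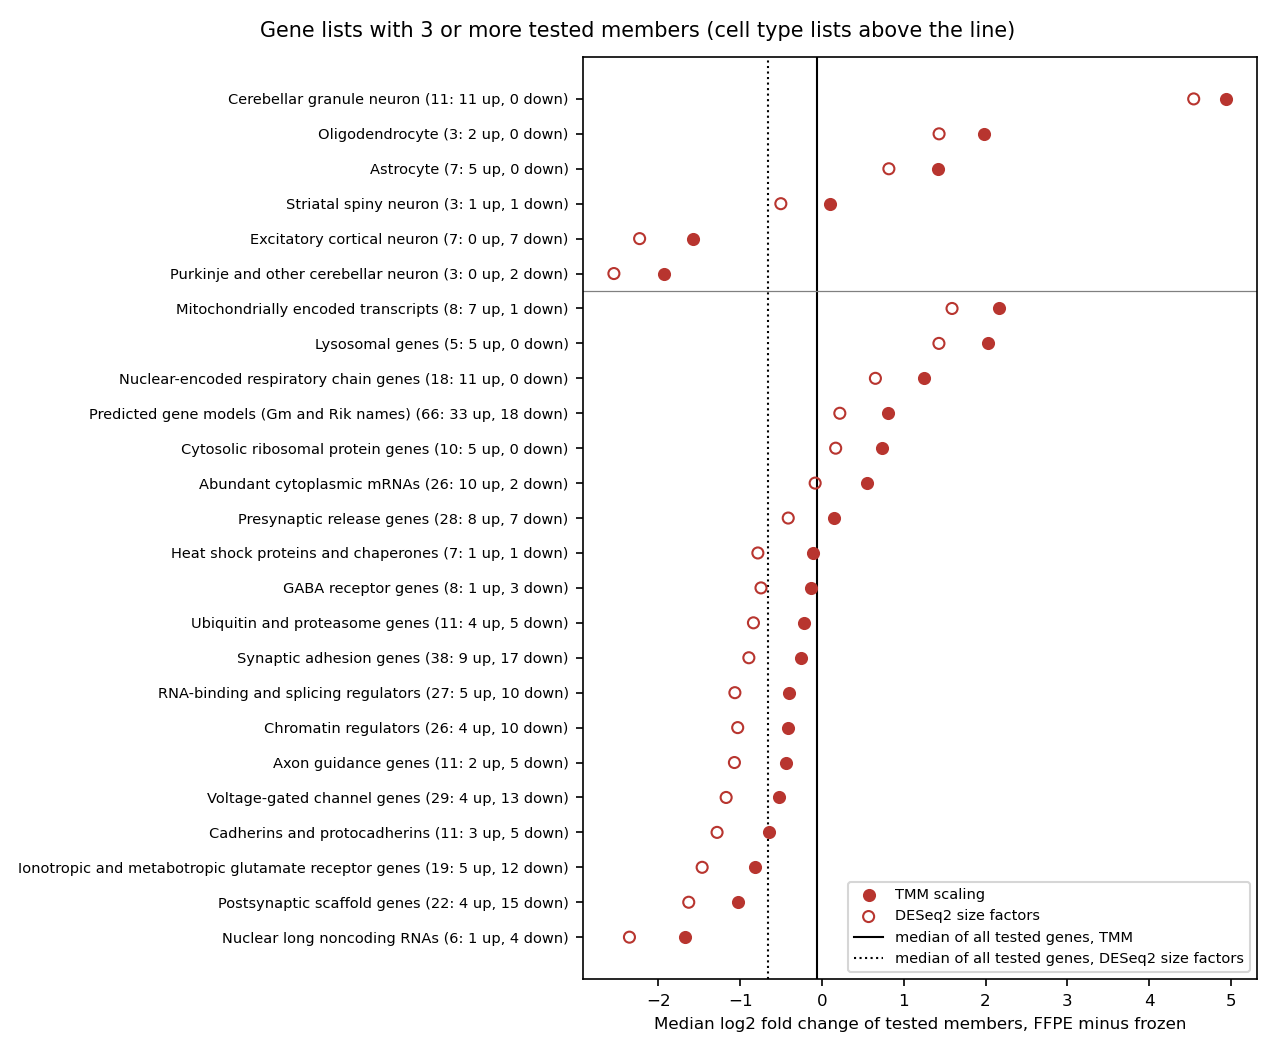
Median log2 fold change, FFPE minus frozen, of the tested members of each gene list with at least 3, under TMM scaling (filled) and DESeq2's size factors (open), with the medians of all tested genes as vertical lines and the number tested, called higher (up) and called lower (down) with TMM in each label. The granule neuron members that passed the filter, several of them only through the FFPE wells, have a median of 4.95, and excitatory cortical neuron, Purkinje and nuclear noncoding RNA lists lie to the left of both lines under their own scaling.

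The classes the authors gave to droplet nuclei of the same study offered another view of the cell type content. Each gene with at least 20 counts in the droplet table was assigned to the class in which its share of the class total was highest, which was possible for 1401 of the tested genes. ExNeuron3, where 9 of the 15 granule neuron genes with a class were highest, was the top class for 14.9% of the genes higher in FFPE wells, 2.80% of those lower and 9.14% of all tested. ExNeuron1, where 3 of 14 excitatory cortical genes were highest, was the top class for 0.261% of the higher genes (1 gene), 12.1% of the lower genes and 4.78% of all tested. Oligodendrocytes were the top class for 10.4% of the higher and 6.29% of the lower genes, against 9.28% of all tested, and astrocytes for 6.79%, 6.76% and 6.85%. Small classes shifted as much: endothelial nuclei had 10.4%, 5.83% and 7.99%, and fibroblasts, a class of 47 nuclei, 18.5%, 12.8% and 15.5%. Other classes, such as ExNeuron5 with 3.92%, 9.79% and 6.85%, went the other way. The droplet nuclei are from FFPE tissue too, so this assignment shares its preservation with the FFPE wells, and no test was made of these shares. The excitatory cortical genes were spread over 7 classes, 5 of them in Microglia, so the class of a gene with few counts is uncertain.

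Counts of members by function are to be read against all tested genes, of which 30.0% were called higher and 29.6% lower with TMM, and 20.8% and 49.1% with DESeq2's size factors. Of 22 tested postsynaptic scaffold genes, 15 were lower and 4 higher (18 and 1 with DESeq2's size factors), with a median log2 fold change of -1.02. Dlgap2, a scaffold protein that binds PSD-95, ranged from 0 to 647 CPM in FFPE wells (median 113) and from 905 to 2693 in frozen wells (median 1381). The groups did not overlap, and the log2 fold change was -3.36 ± 0.27 (SE, edgeR adjusted p = 1.80e-18). Its relative Dlgap1 went the other way without overlap: 5125 to 28730 CPM in FFPE wells (median 10253) against 2169 to 3726 in frozen wells (median 3000), a log2 fold change of 1.86 ± 0.18 (SE, edgeR adjusted p = 7.23e-15). Dlgap1 made up 1.00% of all mouse counts in FFPE wells and 0.308% in frozen wells.

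Of 19 glutamate receptor genes tested, 12 were lower and 5 higher (13 and 4 with DESeq2's size factors). Grin2b, an NMDA receptor subunit of forebrain, had medians of 113 CPM in FFPE and 1070 in frozen wells, with 46 of 48 FFPE wells below the frozen range (log2 fold change -2.87 ± 0.30 SE, edgeR adjusted p = 1.61e-13). Grin2c, the NMDA subunit of mature granule neurons, and Grm4, a metabotropic receptor of granule neuron terminals, were higher, with log2 fold changes of 3.89 and 3.06. These 2 genes were singled out after their values were seen. Voltage-gated channel genes had 13 members lower and 4 higher of 29 tested (20 and 3 with DESeq2's size factors), among them Kcnq3 and Kcnq5 of the M-current, at -2.35 and -2.21, and Kcnd2, a fast inactivating potassium channel, at 1.43. Synaptic adhesion genes had 17 lower and 9 higher of 38 (25 and 2 with DESeq2's size factors). Ptprd, a receptor phosphatase of the presynaptic membrane, had medians of 809 CPM in FFPE and 5508 in frozen wells without overlap (log2 fold change -2.85 ± 0.17 SE, edgeR adjusted p = 7.12e-25). GABA receptor genes had 3 lower and 1 higher of 8 (4 and 1 with DESeq2's size factors), the higher one being Gabra6. Among 28 presynaptic release genes 8 were higher and 7 lower with TMM, near the shares over all tested genes, and 3 and 12 with DESeq2's size factors. Syt2, a fast calcium sensor, rose by 3.83 and Rimbp2, which tethers calcium channels, was lower at -2.76 on the log2 scale.

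Of 8 tested transcripts of the mitochondrial genome, 7 were higher in FFPE wells and mt-Co1 was lower under both scalings. mt-Nd4l, a complex I subunit, ranged from 95.9 to 3461 CPM in FFPE wells (median 1591) and from 0 to 401 in frozen wells (median 241), with 41 of 48 FFPE wells above the frozen range (log2 fold change 2.65 ± 0.29 SE, edgeR adjusted p = 1.38e-12). mt-Co1, a subunit of cytochrome oxidase, had medians of 343 CPM in FFPE and 594 in frozen wells (-0.82 ± 0.24 SE, edgeR adjusted p = 0.00299). The mt-Co1 call was lost in 5 of 16 alternatives: without the filter on low counts, over the pools (adjusted p = 0.468), without the mineral oil wells, in wells of 10 nuclei and against frozen wells of 10 nuclei only. All mitochondrial transcripts together made up 0.769% ± 0.283 (SD, n = 48) of mouse counts in FFPE wells and 0.276% ± 0.097 (SD, n = 16) in frozen wells. Nuclear-encoded respiratory chain genes had 11 of 18 tested members higher and 0 lower (9 and 2 with DESeq2's size factors), led by Atp5e at a log2 fold change of 3.30, a subunit of ATP synthase. Ribosomal protein genes had 5 of 10 higher and 0 lower (3 and 1 with DESeq2's size factors). For the abundant cytoplasmic mRNAs the split depended on the scaling: 10 of 26 higher and 2 lower with TMM, 5 and 6 with DESeq2's size factors. Actb, cytoskeletal actin, was higher under both (2.23 ± 0.35 SE, edgeR adjusted p = 1.13e-07) and Thy1, a surface protein of neurons, lower under both (-1.08 ± 0.34 SE, adjusted p = 0.00464). The Thy1 call was lost in 3 of 13 alternatives (adjusted p up to 0.556): over the pools, without the mineral oil wells and against frozen wells of 10 nuclei only.

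Of 6 tested noncoding RNAs kept in the nucleus, 4 were called lower and 1 higher under both scalings. Malat1, the most abundant of them (chromosome 19, 5795690 to 5802672, minus strand), ranged from 2344 to 28080 CPM in FFPE wells (median 12306) and from 66955 to 114200 in frozen wells (median 91578). The groups were far apart, and the log2 fold change was -3.04 ± 0.10 (SE, edgeR adjusted p = 7.29e-41). Malat1 made up 9.62% of all mouse counts in frozen wells and 1.47% in FFPE wells. Meg3, a maternally expressed neuronal RNA (chromosome 12, 109541001 to 109571726, plus strand), had medians of 3882 CPM in FFPE and 12164 in frozen wells without overlap (-1.90 ± 0.19 SE, edgeR adjusted p = 2.18e-14). Miat, an RNA of neuronal nuclear bodies, also did not overlap between groups (-3.33 ± 0.29 SE, edgeR adjusted p = 8.34e-17). Neat1, the scaffold of paraspeckles, was higher (2.39 ± 0.53 SE, edgeR adjusted p = 6.95e-05), with 26 of 48 FFPE wells above the frozen range. Its call was lost over the pools and against frozen wells of 10 nuclei only (adjusted p up to 0.498).

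Of 27 RNA-binding genes tested 10 were lower and 5 higher (17 and 2 with DESeq2's size factors), and of 26 chromatin genes 10 were lower and 4 higher (15 and 3), against 29.6% lower and 30.0% higher over all tested genes. Khdrbs3, a splicing regulator, had medians of 19.6 CPM in FFPE and 631 in frozen wells (log2 fold change -3.77 ± 0.34 SE, edgeR adjusted p = 6.83e-16). Arid5b, a DNA-binding cofactor of histone demethylation, ranged from 0 to 873 CPM in FFPE wells and from 1839 to 5205 in frozen wells (-4.35 ± 0.25 SE, edgeR adjusted p = 8.29e-26). Chd7, a chromatin remodeller of granule neuron development, was higher (3.16 ± 0.50 SE, adjusted p = 7.73e-08). Heat shock genes had 1 higher and 1 lower of 7 tested (0 and 4 with DESeq2's size factors), and of the immediate early genes Homer1 alone was tested, and was lower (-1.69; lost over the pools and against frozen wells of 10 nuclei only, adjusted p up to 0.325). Axon guidance genes had 5 lower and 2 higher of 11 (7 and 0 with DESeq2's size factors), cadherins 5 and 3 of 11 (8 and 3), and ubiquitin and proteasome genes 5 and 4 of 11 (7 and 4). No test was made of these counts.

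The 12 largest rises mixed granule neuron genes with genes of other kinds. Ctsc, the lysosomal protease cathepsin C (chromosome 7, 88278085 to 88310888, plus strand), ranged from 1036 to 162800 CPM in FFPE wells (median 24824) and from 16.3 to 1420 in frozen wells (median 172). In 47 of 48 FFPE wells it exceeded every frozen well (log2 fold change 7.25 ± 0.45 SE, edgeR adjusted p = 8.83e-24). Tspan3, a tetraspanin (chromosome 9, 56131725 to 56165477, minus strand), had medians of 21725 and 169 CPM, with 47 of 48 FFPE wells above the frozen range (6.76 ± 0.43 SE, edgeR adjusted p = 2.94e-23). Together with Sft2d2, a vesicle transport protein with FFPE values of 569 to 40449 CPM and frozen values of 17.9 to 487, these genes were higher in wells of 10 nuclei than in wells of 100, in both arms. Median Ctsc was 91444 CPM at 10 nuclei and 19965 at 100 nuclei in mineral oil wells, and 273 and 66.3 in frozen wells. Ctsc alone was 2.62% and Tspan3 2.17% of all mouse counts in FFPE wells, against 0.0155% and 0.0174% in frozen wells. All 5 tested lysosomal genes were called higher, with Lamp1 lost under DESeq2's size factors, but the summed level of that list followed Ctsc.

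Clec12a, a myeloid lectin receptor, Wdr72, a WD-repeat protein, and Cnpy1, a small secretory-pathway protein, were also among the largest rises. Clec12a had 918 FFPE counts and 2 frozen counts, Wdr72 4729 and 33, and Cnpy1 494 and 0, the last at least 58.9-fold higher in FFPE. The Cnpy1 call was lost over the pools (edgeR adjusted p = 0.0539). Gm21317 and Gm21865 are predicted genes on the Y chromosome that belong to multicopy families, whose reads cannot be placed with certainty: they had 2481 and 439 FFPE counts against 2 and 1 frozen counts, opposite to Eif2s3y on the same chromosome.

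The 12 largest falls had in part no known role. 2900055J20Rik, a predicted gene, had 28 counts over the 48 FFPE wells and 294 to 1049 CPM in every frozen well (log2 fold change -6.93 ± 0.35 SE, edgeR adjusted p = 1.36e-25). Gm26917, a predicted noncoding gene (chromosome 17, 39843013 to 39846341, plus strand), ranged from 0 to 1123 CPM in FFPE wells and from 5300 to 12946 in frozen wells (-4.85 ± 0.24 SE, edgeR adjusted p = 3.12e-29). Gm28928 had a median of 8.61 CPM in FFPE and 919 in frozen wells, at a log2 fold change of -5.06. Kctd16, an auxiliary subunit of GABA-B receptors, had medians of 3.40 CPM in FFPE and 802 in frozen wells without overlap (-4.83 ± 0.34 SE, edgeR adjusted p = 2.45e-21). Fam19a1, a secreted protein of neurons (chromosome 6, 96113154 to 96657198, plus strand), had medians of 47.8 and 1264 CPM, again without overlap (-4.27 ± 0.27 SE, edgeR adjusted p = 6.37e-24). The other falls were Cck, Arid5b and Khdrbs3, described above, and Ttc19, Pdzrn3, Clip4 and Klhl29, with log2 fold changes between -4.13 and -3.82.

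The FFPE and frozen ranges did not overlap for 44 of the 1478 genes (2.98%): 19 genes lay above (1.29%) and 25 below (1.69%). Besides those above, FFPE wells were higher without overlap for Sgta, a chaperone cofactor, Laptm4a, a lysosomal membrane protein, Dgkb, a diacylglycerol kinase, Cdh18, a cadherin, and Lmnb1, a nuclear lamin. They were lower without overlap for Phactr1, a regulator of actin, Celf2, a splicing factor, and Syn1, a synaptic vesicle phosphoprotein. These 8 genes were named after their values were seen.

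The genes that differed also differed in length. The span on the genome from first to last exon had a median of 78008 bases among higher genes, 185760 among lower genes and 126970 among all tested genes (97.6% of the tested genes had an annotation in GENCODE M21). When the tested genes were ordered by span and cut into 5 equal sets, the shortest set spanned 204 to 33000 bases, and 46.4% of it was called higher and 17.0% lower. In the longest set, spanning 362957 to 2960900 bases, 23.2% were higher and 42.2% lower. Expression moved along with span: the median frozen level was 107 CPM in the shortest set and 389 in the longest, and its part in these shares was not tested. GC content of the exons had medians of 47.4% among higher and 47.7% among lower genes.

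**Figure D4:**
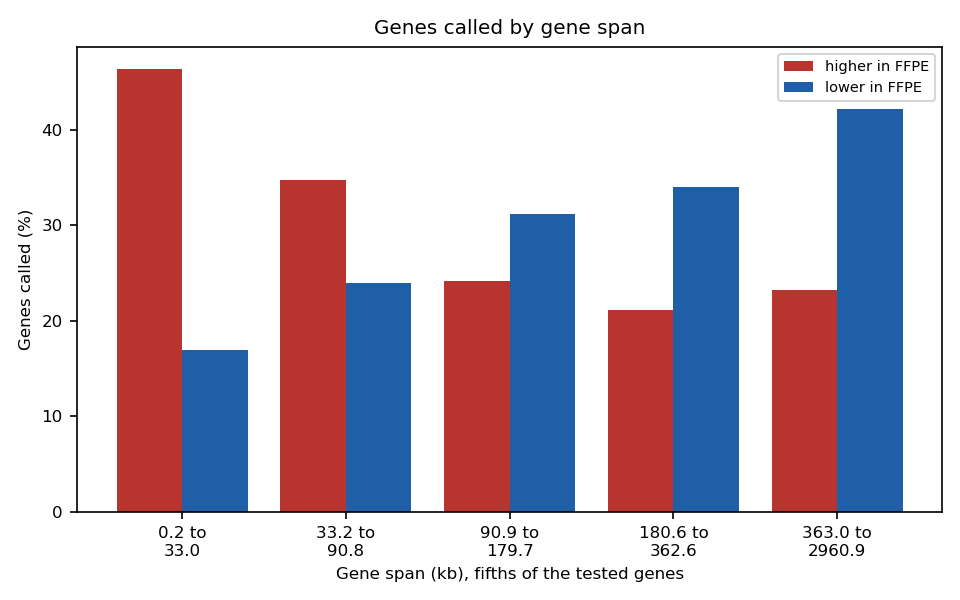
Percent of tested genes called higher (red) and lower (blue) in FFPE wells in 5 equal sets ordered by gene span, in kilobases. The share called higher falls from 46.4% to 23.2% and the share called lower rises from 17.0% to 42.2% from the shortest to the longest set.

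Each paraffin removal method was also set against the frozen wells, which the 3 comparisons share. Mineral oil gave 865 calls (58.5%), 379 higher (25.6%) and 486 lower (32.9%), heated xylene 772 (52.2%), 444 higher (30.0%) and 328 lower (22.2%), and room-temperature xylene 779 (52.7%), 455 higher (30.8%) and 324 lower (21.9%). Gabra6 was higher for each method, with log2 fold changes of 7.70, 7.16 and 6.86 in that order, and Malat1 was lower for each, at -3.60, -3.06 and -2.47. Camk2a stood at -5.40, -2.48 and -2.02. In mineral oil wells of 10 nuclei the median was 0 CPM for Cbln1, Zic1 and Camk2a, and those wells detected 1622 to 2623 genes.

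The differences from frozen wells were also taken at each nuclei number. At 10 nuclei 931 genes were called (63.0%), 344 higher (23.3%) and 587 lower (39.7%), and at 100 nuclei 701 (47.4%), 387 higher (26.2%) and 314 lower (21.2%). The difference between the 2 numbers was itself called for 280 genes (18.9%), more positive at 10 nuclei for 41 (2.77%) and more negative for 239 (16.2%), with a median of -0.46 over all tested genes. For 12 genes the difference was called in opposite directions at the 2 numbers. Snhg20, a small nucleolar RNA host gene, was lower at both: it had 0 counts in all 24 FFPE wells of 10 nuclei and 54.1 to 582 CPM in the 8 frozen wells, at least 110-fold lower in FFPE (floor of 3 counts over the FFPE wells), and a log2 fold change of -1.89 at 100 nuclei. Sez6l2, a neuronal membrane protein, was called lower at 10 nuclei and higher at 100 (log2 fold change 1.43), and the methods differed at 10. All 16 mineral oil and heated xylene wells of 10 nuclei had 0 counts of Sez6l2, whereas the 8 room-temperature xylene wells held 31.2 to 391 CPM, a range that overlapped the 0 to 296 of the frozen wells. Mbp was likewise called lower at 10 nuclei and higher at 100 (1.08). All 8 mineral oil wells of 10 nuclei had 0 counts of Mbp, while heated xylene wells held 197 to 614 CPM and room-temperature xylene wells 35.2 to 2477, against 64.7 to 425 in frozen wells. Gm9923 and B3glct, a glucosyltransferase, were higher at both and more so at 10 nuclei, at 3.84 and 2.17, and 3.30 and 2.00. Malat1 was lower by 3.37 at 10 nuclei and by 2.71 at 100 (edgeR adjusted p of the difference = 0.00719).

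A second chemistry offered values from other wells. SMART-Seq2, which reads along the whole transcript, was run on 9 FFPE wells and 3 frozen wells of 10, 50 or 100 nuclei, with 1 well for each treatment and number. There 429 of 9092 tested genes (4.72%) were called, 126 higher (1.39%) and 303 lower (3.33%), and between 103 and 177 when 1 of the 3 frozen wells was left out. Of the SCRB-seq genes higher in FFPE, 377 were tested in SMART-Seq2: 274 had a log2 fold change above 0, 72 were called higher and 7 lower. Of those lower in FFPE, 433 were tested: 373 were below 0, 128 were called lower and 2 higher. Over all 1402 genes tested in both, 639 were above 0. No test was made of the difference between the chemistries.

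For the granule and cortical genes the directions in SMART-Seq2 were those of SCRB-seq. Gabra6 ranged from 43.5 to 1026 CPM in the 9 FFPE wells, and Cbln3 from 239 to 733, while both had 0 counts in the 3 frozen wells (edgeR adjusted p = 5.76e-05 and 1.62e-06). Of 14 granule genes tested there 9 were called higher and 0 lower, and of 12 excitatory cortical genes 7 were called lower and 0 higher. Over all 9092 genes tested there 1.39% were called higher and 3.33% lower. Gabra6, Cbln3, Cbln1 and Zic1 had 0 counts in the 3 frozen wells and passed the filter through the FFPE wells alone. The counts of members thus describe those that passed. Camk2a ranged from 26.0 to 252 CPM in FFPE and from 703 to 954 in frozen wells (log2 fold change -3.07, edgeR adjusted p = 6.54e-05), and Fam19a1 from 0 to 62.5 against 1157 to 5967 (-8.61, adjusted p = 4.28e-06). Of the 12 largest falls, all 12 were tested and below 0 in SMART-Seq2, and 9 were called lower. Malat1 was lower there by less: 8331 to 18357 CPM against 11641 to 25955, a log2 fold change of -0.69 (edgeR adjusted p = 0.0124).

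Other genes differed between the chemistries in their values. Ctsc, at 2.62% of counts in FFPE SCRB-seq wells, had 98 of 5649450 counts in FFPE SMART-Seq2 wells and 0 in frozen ones, and was not tested. Tspan3 had a log2 fold change of 0.31 (edgeR adjusted p = 0.898), and Clec12a had 1 FFPE count. Of the 12 largest rises 6 were tested in SMART-Seq2, all above 0, and 5 were called higher. Of the 19 genes above the frozen range in SCRB-seq 12 were tested, 6 above 0 and 6 below, with 0 called. Of the 25 below the frozen range 22 were tested, 20 of them below 0 and 15 called lower. mt-Co1, lower in SCRB-seq, was higher in SMART-Seq2 (2.35, adjusted p = 0.000319), and Grm7, a presynaptic glutamate receptor, was higher in SCRB-seq (1.07) and lower in SMART-Seq2 (-3.51, adjusted p = 3.32e-07).

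**Figure D5:**
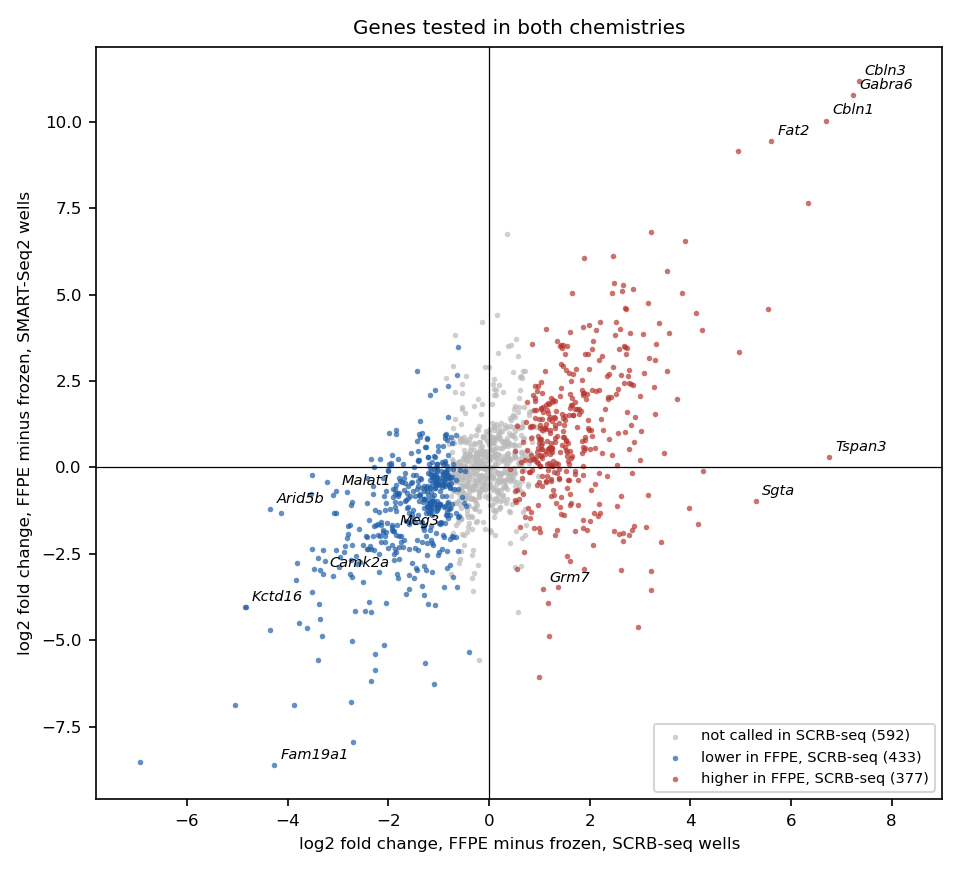
Log2 fold change, FFPE minus frozen, of the 1402 genes tested in both chemistries, SCRB-seq on the horizontal and SMART-Seq2 on the vertical axis, coloured by the SCRB-seq call. Of the genes lower in SCRB-seq 373 of 433 lie below 0 on the vertical axis, and of the genes higher 274 of 377 lie above it, with Cbln3, Gabra6, Cbln1 and Fat2 at the upper right and Tspan3 near 0.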

How the data were processed

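Counts per gene and well were used as the authors deposited them, with treatment and nuclei number from the deposited well table; all 64 wells were mapped. Human and mouse genes are counted side by side (hg19 and mm10, per the submitters' processing notes). No label or header names the aligner or says whether molecular identifiers were collapsed. Only the 19006 mouse genes entered the tests. edgeR 4.0.16 (R 4.3.3) used TMM scaling, its expression filter by treatment (minimum count 10) and the quasi-likelihood test with treatment and nuclei number, comparing the mean of the 3 FFPE methods with frozen; p-values were adjusted by Benjamini-Hochberg. DESeq2 1.42.0 was an alternative. The fit was also run on simulated counts of independent wells without pool or animal effects, so that run does not address such effects. Wells were compared for single values by exact permutation within nuclei number. Counting intervals are exact 95% intervals and, like floors of 3 counts, cover counting error only. Wells share barcodes across pools, but no label pairs them.

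Named genes were the 12 largest rises and falls with the same sign for every method and nuclei number, up to 2 called members of each list in each direction, the first 3 markers of each cell type, up to 3 genes in each direction for the nuclei number, and Malat1 and every gene over 1% of counts; other members of the lists, among them Nrgn, Chn2, C1qb, Tyrobp, Sst, Vip, Zic4 and Barhl1, and genes described as singled out were chosen after their values were seen. Some genes the rule names are not reported here. The comparison and the gene lists were chosen with earlier results of these data known. Coordinates come from GENCODE M21 (GRCm38/mm10). Droplet classes are the authors' deposited annotation, with their deposited counts.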

Additional observations from a re-analysis of the deposited data

Results flagged for a closer look

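The share of counts on human genes belongs to no comparison of mouse genes and was higher in FFPE wells. Over wells of 10 nuclei it was 19.3% ± 6.24 (SD, n = 24) in FFPE and 2.78% ± 0.54 (SD, n = 8) in frozen wells, with every FFPE well above the highest frozen well (2-sided exact permutation test, p = 9.51e-08, the smallest it can give). Over wells of 100 nuclei it was 9.31% ± 2.26 (SD, n = 24) against 1.91% ± 0.24 (SD, n = 8), again without overlap and with the same exact p. The share was highest in mineral oil wells of 10 nuclei, at 22.9% to 31.8%. RBFOX1 and LPP together took 18.9% of the human counts of FFPE wells, and LINC00486 took 4.34% there and 11.2% of those of frozen wells. The source of these counts was not tested.

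Given here are 5 genes, those with the smallest adjusted p in each direction that are reported, for which the difference between FFPE and frozen wells itself differed between 10 and 100 nuclei, by the interaction term of edgeR's quasi-likelihood fit, given here as the log2 difference at 10 nuclei minus that at 100. It was 1.68 for Gm9923 (adjusted p = 1.01e-05), 1.31 for B3glct (adjusted p = 0.000471) and 3.04 for Igsf5 (adjusted p = 0.00277). It was -5.09 for Sez6l2 (adjusted p = 1.64e-06) and -5.38 for Snhg20 (adjusted p = 4.34e-06). Both sizes are fitted against FFPE wells at 0 and are no bounds: at 10 nuclei Snhg20 had 0 counts in all 24 FFPE wells and Sez6l2 in 16 of 24, all mineral oil or heated xylene. The counts of Igsf5 differed by method. Mineral oil wells held 42 counts at 10 nuclei, with 4 wells at 0 and the highest at 4659 CPM, and 3 counts at 100, with 6 wells at 0. Medians at 10 and 100 nuclei were 225 and 212 CPM with heated xylene and 544 and 432 with room-temperature xylene. In frozen wells they were 106 and 162.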

How the results depend on the processing

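The count of 882 genes became 5196 without the filter on low counts, 2334 with a minimum count of 3, 189 over the 8 pools, 75 after drawing each well down to 7500 counts (95 genes tested) and 478 in wells of 10 nuclei (783 tested). The filter, the draw-down, the pools and leaving out wells change how many genes are tested, and otherwise the cause was not tested. The count stayed within 1.5 times under the other alternatives, from 686 to 1163, but of 1104 to 2440 genes tested. Against frozen wells of 100 nuclei only, 780 of 2369 genes were called, and 572 of the 881 main calls tested there kept call and direction. With the well barcode as a block, an alternative chosen after seeing the data, 903 genes were called. Without the filter, mineral oil gave 4922 calls, heated xylene 5078, room-temperature xylene 4007, wells of 10 nuclei 4761 and of 100 nuclei 3244. The difference between nuclei numbers gave 444 calls with DESeq2's size factors, 448 with its Wald test and 1205 without the filter. SMART-Seq2 gave 1021 calls with the Wald test and 103 to 464 with 1 well left out; without the frozen wells of 100, 50 and 10 nuclei it gave 177, 173 and 103. The genes detected at 10 nuclei passed the test (-876) only when drawn down. Foxp1 turned to -0.10 under both DESeq2 alternatives, Mbp to -1.61 in wells of 10 nuclei, Igsf5 to -1.01 in wells of 100 and Sez6l2 to -1.51 against frozen wells of 10 nuclei only. Of the named genes' other values under alternatives, 1521 kept direction and call, 110 lost the call and 8 gained it; 52 of those lost were over the pools. The human share kept its direction without the shallow wells, an alternative added later. Of the 882 genes, 869 were called in the same direction with that block. The wells carry no replicate number, so no other pairing was fitted.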
